A study of Mus musculus with 16 samples.

Results

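The aortas of uremic mice on a pair of contrasting diets were compared here by RNA sequencing. One group ate 2% phosphorus with 18% protein (5/6 Nx-HPi-Hp, here HPi-Hp mice), and the other 0.3% phosphorus with 2.5% protein (5/6 Nx-LPi-Lp, here LPi-Lp mice). The libraries were chosen by their labels alone, 4 mice of each group, and made up 8 of the 16 libraries sequenced. All 8 mice were adult male C57BL/6J mice with 5/6 nephrectomy (5/6 Nx), a surgical removal of most kidney tissue that models CKD, and the labels give 30 days on the diet. Each library came from the whole aorta of a single mouse. The other 8 libraries were from nephrectomized mice on 2% phosphorus and 2.5% protein (5/6 Nx-HPi-Lp, here HPi-Lp mice) and from Sham-operated mice on that same diet (Sham mice), and their levels are given beside the results without a test. Phosphorus and protein differed together between the compared diets, so their contributions cannot be told apart here.

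Phosphate retention in CKD exposes the smooth muscle of the artery wall to a mineral load, and the wall answers with inhibitors of mineral growth such as matrix Gla protein and pyrophosphate. Dietary protein sets the supply of amino acids and, through the liver and the growth hormone axis, the level of IGF-1. A whole aorta also carries perivascular fat, in which fatty acids and sterols are made under control of the SREBP transcription factors and in which brown adipocytes burn lipid for heat. Type I interferon acts through transcription factors of the IRF and STAT families that bind a response element in the promoters of its target genes.

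The promoters of 2 interferon targets described below are shown because the interferon genes were among the sets with the most members separated between the diets. They were picked after their values were seen, since of the called members with the smallest p Ifi27l2a was not in the promoter table and the window of Irf7 held no match. Capitals mark matches, on either strand, to TTTC followed after any 2 bases by a further TTTC, the core of the interferon response element. The windows run from 250 bases before to 50 bases after the transcription start in the RefSeq promoter table (GRCm38.p6), and each is written 5′ to 3′ on the strand of its gene. The Isg15 window (chr4:156200769-156201068, minus strand) held 3 overlapping matches, which began 78, 72 and 66 bases before the start. The Ifit1 window (chr19:34640639-34640938, plus strand) held 2 matches, which began 104 and 85 bases before the start.
Isg15: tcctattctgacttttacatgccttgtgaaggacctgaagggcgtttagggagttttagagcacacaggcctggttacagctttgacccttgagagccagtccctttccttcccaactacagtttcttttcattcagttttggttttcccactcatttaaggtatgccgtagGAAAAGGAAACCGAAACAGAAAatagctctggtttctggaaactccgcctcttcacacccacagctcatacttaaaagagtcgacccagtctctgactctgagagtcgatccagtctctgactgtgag
Ifit1: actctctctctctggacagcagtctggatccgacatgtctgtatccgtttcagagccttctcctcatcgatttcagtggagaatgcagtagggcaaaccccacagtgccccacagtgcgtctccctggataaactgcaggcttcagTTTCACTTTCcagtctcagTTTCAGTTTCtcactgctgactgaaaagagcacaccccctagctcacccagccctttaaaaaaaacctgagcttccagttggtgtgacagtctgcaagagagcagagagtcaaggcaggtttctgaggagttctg
Of the 34 interferon-stimulated genes tested, 25 had a promoter in the table and 17 of those held the motif, against 3.44% of all 32851 promoters. The match is a description of the letters and does not show that a factor was bound.

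No gene passed the main test between the diets. The edgeR quasi-likelihood test over 15850 genes called 0 genes (0%), where a call needed an adjusted p up to 0.05 together with a log2 fold change of 1 or more in either direction. The smallest adjusted p was 0.146. At an unadjusted p under 0.05 it had 727 genes with a higher mean in the HPi-Hp mice (4.59%) and 693 with a lower mean (4.37%). DESeq2 on the same counts and thresholds called 88 genes, 37 higher in the HPi-Hp mice (0.233%) and 51 lower (0.322%), and limma on FPKM called 0. The count by DESeq2 was 44 without HPi-Hp replicate 2, 21 without LPi-Lp replicate 1 and 23 without LPi-Lp replicate 3. In the text below a gene is therefore said to be called only where DESeq2 called it, and all fold changes and intervals are those of edgeR. Positive log2 fold changes are higher in the HPi-Hp mice.

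The absence of edgeR calls does not show that the aortas were alike. The 95% interval of the log2 fold change had a median half-width of 0.56, and it lay within −1 and 1 for 9720 genes (61.3%), so for these genes a change above 2-fold lay outside the interval. An estimated change of at least 2-fold, whatever its interval, was seen for 746 genes. The 4 libraries of each diet did not overlap, in CPM (counts per library size, with TMM factors), for 374 genes higher in the HPi-Hp mice (2.36%) and 457 genes lower (2.88%). These counts were not set against a chance level, so they do not show that the aortas differed. With total-count scaling the split of these separated genes was 598 higher and 236 lower, so the balance of directions depended on the scaling. The median log2 fold change over all genes was 0.00. The shares of all genes called or separated stand for comparison with the counts of list members below.

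**Figure D1:**
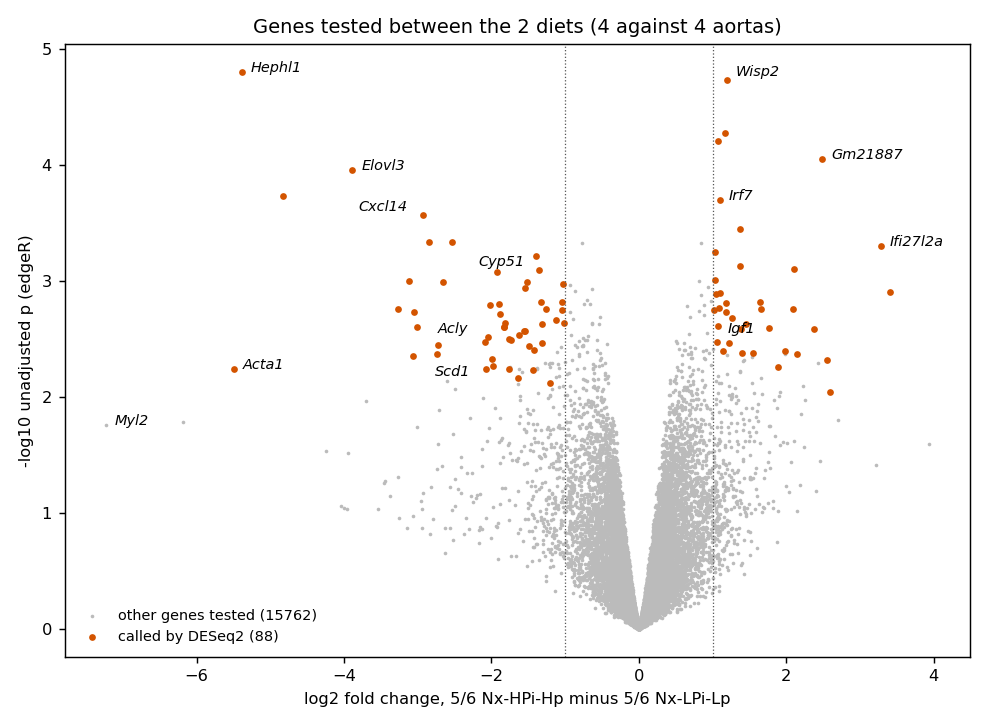
Each point is 1 of the 15850 genes tested, with the log2 fold change (HPi-Hp minus LPi-Lp) on the x axis and −log10 of the unadjusted edgeR p on the y axis; dotted lines mark a 2-fold change. The 88 genes that DESeq2 called are in orange, 37 on the right and 51 on the left, and Hephl1 and Wisp2 stand highest.

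Markers of aortic smooth muscle were present in every library. The 31 contractile smooth muscle genes tested summed to 22584 to 54339 CPM in the HPi-Hp mice and 22809 to 46017 CPM in the LPi-Lp mice. The libraries also differed in adherent tissue. Adipoq, the adipocyte hormone adiponectin, was at 565, 214, 533 and 56.6 CPM in the HPi-Hp mice and at 366, 179, 230.2 and 134 CPM in the LPi-Lp mice. Heart muscle genes summed to 14200.3 CPM in LPi-Lp replicate 2 and to at most 2001 CPM in the other 7 libraries. The total was 13659525 to 21547424 counts per library, and mitochondrially encoded genes took 19.96% ± 8.78 of them (SD, n = 4) in the HPi-Hp mice and 17.4% ± 2.83 (n = 4) in the LPi-Lp mice (exact permutation test, two-sided, p = 0.629; the smallest p that 70 splits allow is 0.0286). The difference of 2.53 percentage points was −0.50 without HPi-Hp replicate 2. In whole tissue, fewer cells of a type and less RNA per cell cannot be told apart.

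Genes of fatty acid synthesis had the most negative median of the metabolic lists. Of the 22 members tested, DESeq2 called 5 lower and 0 higher, against 0.322% and 0.233% of all genes. Among them 2 were separated and lower, against 2.88% of all genes. A negative fold change was found for 19, and the median log2 fold change was −1.08, against 0.00 over all genes. Without LPi-Lp replicate 1 the median was −0.60, and DESeq2 then called none of the members, as it did without LPi-Lp replicate 3 or HPi-Hp replicate 2.

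Scd1 (chr19:44394451-44407709), the desaturase that makes oleate, was at 4942, 4130.3, 9482 and 2141 CPM in the HPi-Hp mice and at 40902, 11043, 24121 and 10625 CPM in the LPi-Lp mice. The groups did not overlap, and replicates 1 and 3 of the LPi-Lp mice stood far above the other libraries. The log2 fold change was −2.08 (95% interval −3.40 to −0.76, edgeR adjusted p = 0.492; DESeq2 adjusted p = 0.0118). Acly, ATP citrate lyase, which supplies cytosolic acetyl-CoA, was at 531, 235, 790.3 and 373 CPM against 3968, 798, 2274 and 1126 CPM, again without overlap (log2 fold change −2.09, 95% interval −3.31 to −0.88). Elovl6, an elongase of saturated fatty acids, was at 79.4 to 262 CPM against 259.6 to 1026 CPM, with an overlap of 1 library on each side (log2 fold change −2.04). Me1, the malic enzyme that generates NADPH for lipid synthesis, was at 151 to 541 CPM against 497 to 1775 CPM (log2 fold change −1.77). DESeq2 called all 4 of these genes, and also Scd2.

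Fasn, fatty acid synthase, was at 2433 to 8556 CPM in the HPi-Hp mice and 6558 to 23692 CPM in the LPi-Lp mice. Its log2 fold change was −1.53 (95% interval −2.76 to −0.30), and DESeq2 did not call it (adjusted p = 0.112). In the other groups Fasn averaged 2332 ± 1269 CPM (HPi-Lp, SD, n = 4) and 1905 ± 584 CPM (Sham, n = 4), and Scd1 averaged 7579 ± 3904 and 2404 ± 889 CPM. For both genes the mean of the LPi-Lp mice was the highest of the 4 groups.

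The 24 white adipocyte genes tested had fold changes in both directions, 12 positive and 12 negative. Their median log2 fold change of 0.00 was −0.46 without HPi-Hp replicate 3 and 0.36 without LPi-Lp replicate 1. They summed to 4310 to 27772 CPM in the HPi-Hp mice and 7739 to 19630 CPM in the LPi-Lp mice, with 0 members separated between the groups. In the HPi-Hp mice the summed level of white adipocyte genes was highest in replicate 3 and lowest in replicate 4, as was that of fatty acid synthesis. The ratio of Scd1 to Adipoq, a measure chosen after the values were seen, was 8.74 to 37.8 in the HPi-Hp mice and 61.6 to 111.9 in the LPi-Lp mice, without overlap. The summed level of the fatty acid synthesis list was 0.77 to 1.84 times that of the white adipocyte list in the HPi-Hp mice and 2.22 to 4.39 times in the LPi-Lp mice. This sum was mostly Scd1 and Fasn, which averaged 21672.5 and 13192.3 of 46971.2 CPM in the LPi-Lp mice. It therefore does not speak for each member of the list. For Fasn and Acly the ratios to Adipoq overlapped between the groups, through HPi-Hp replicate 4, which had the least Adipoq. In the other groups, without a test, the ratio of Scd1 to Adipoq was 8.2 to 38.2 (HPi-Lp) and 48.7 to 72.7 (Sham). The Sham range overlapped that of the LPi-Lp mice. The ratio of Fasn to Adipoq averaged 20.09 (HPi-Hp), 55.35 (LPi-Lp), 7.46 (HPi-Lp) and 49.1 (Sham).

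**Figure D2:**
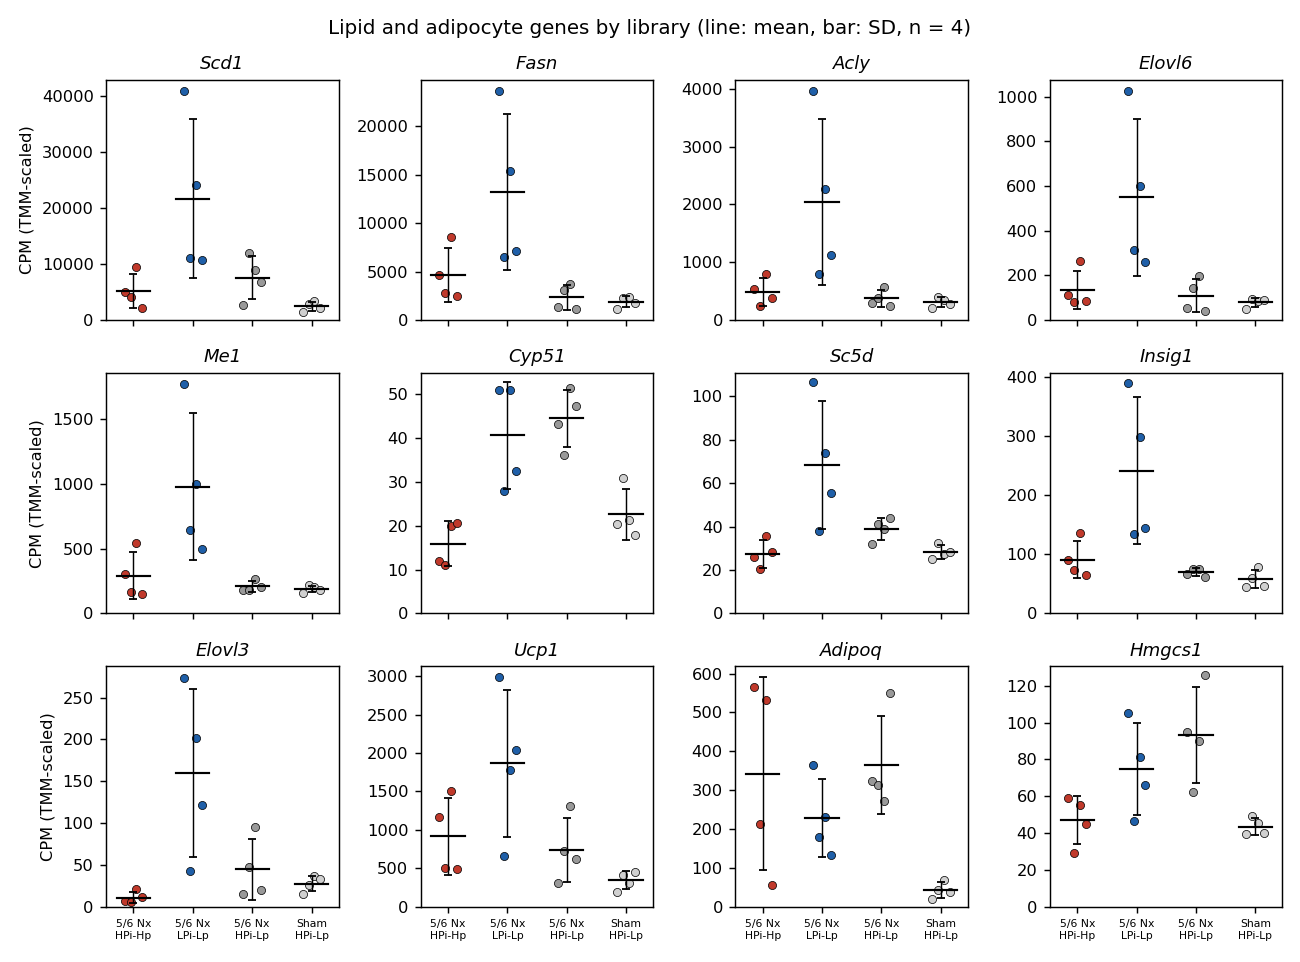
TMM-scaled CPM (y axis) of 12 lipid and adipocyte genes in each library of the 4 groups (x axis), with the mean as a line and the SD as a bar (n = 4). Scd1, Acly, Cyp51, Sc5d and Elovl3 are lower in all 4 libraries of the HPi-Hp mice than in any of the LPi-Lp mice, while Adipoq overlaps.

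Of 25 genes of cholesterol synthesis and uptake tested, edgeR called 0 and DESeq2 called 4 lower in the HPi-Hp mice and 0 higher. Over all genes DESeq2 called 0.322% lower. Among the members 5 did not overlap and were lower, against 2.88% of all genes. A negative fold change was found for 22, with a median of −0.68. The calls were again lost without LPi-Lp replicate 1 or replicate 3, where DESeq2 called 0 members.

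Cyp51, lanosterol demethylase, was at 12, 11.1, 19.9 and 20.7 CPM in the HPi-Hp mice and at 51, 28, 51.1 and 32.5 CPM in the LPi-Lp mice (log2 fold change −1.35, 95% interval −1.98 to −0.72). Sc5d, the sterol desaturase near the end of the pathway, was at 20.2 to 35.4 CPM against 37.9 to 106 CPM (log2 fold change −1.33). Hsd17b7, a keto reductase of the same pathway, was at 1.56 to 5.29 CPM against 6.34 to 13.1 CPM (log2 fold change −1.62). These 3 enzymes did not overlap between the diets. Insig1, which retains the SREBP complex in the endoplasmic reticulum and is itself an SREBP target, was at 65.2 to 136 CPM against 134 to 389 CPM and overlapped narrowly (log2 fold change −1.42). Hmgcs1, the first committed enzyme, was at 29.4 to 58.8 CPM against 46.4 to 105 CPM (log2 fold change −0.68, 95% interval −1.30 to −0.05) and was not called. The order of the other groups differed from that of Scd1, since Cyp51 averaged 44.6 ± 6.52 CPM in HPi-Lp mice and 22.6 ± 5.78 in Sham mice. Of 18 genes of this list in the promoter table, 1 (Hmgcs1) held TCACNCCAC, the sterol response element, on either strand, against 1.24% of all promoters, and the windows of Cyp51, Sc5d, Hsd17b7 and Insig1 held none.

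Brown adipocyte genes, genes of fatty acid oxidation and nuclear genes of the respiratory chain had negative medians whose size depended on single libraries. The 18 brown adipocyte genes tested had a median log2 fold change of −0.52, which was −0.87 without HPi-Hp replicate 3, −0.22 without HPi-Hp replicate 4 and −0.18 without LPi-Lp replicate 1. They summed to 1097 to 3833 CPM in the HPi-Hp mice and 2549 to 6658 CPM in the LPi-Lp mice. Elovl3, an elongase of very long fatty acids that marks active brown fat, was the exception in size. It was at 6.44, 4.95, 20.5 and 11.6 CPM in the HPi-Hp mice and at 274, 42.4, 202 and 122 CPM in the LPi-Lp mice, without overlap (log2 fold change −3.89, 95% interval −5.29 to −2.48; DESeq2 adjusted p = 3.59e-09). DESeq2 called it with each library left out in turn, and its ratio to Adipoq did not overlap either. That ratio averaged 0.069 (HPi-Hp), 0.692 (LPi-Lp), 0.1465 (HPi-Lp) and 0.701 (Sham). Ucp1, the uncoupling protein of brown fat, given here although no rule named it, was at 496 to 1501 CPM against 663 to 2990.2 CPM and overlapped (log2 fold change −1.04, 95% interval −2.16 to 0.07).

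Of 29 genes of fatty acid oxidation, 26 had a negative fold change and the median was −0.55, but no member was called or separated. That median was −0.82 without HPi-Hp replicate 3, −0.31 without HPi-Hp replicate 4 and −0.25 without LPi-Lp replicate 1. Acot1, a cytosolic acyl-CoA thioesterase, had the smallest p of them, at 1.71 to 7.36 CPM against 5.87 to 23.7 CPM (log2 fold change −1.75, 95% interval −2.85 to −0.64). Of 80 nuclear-encoded respiratory chain genes, 76 had a negative fold change, with a median of −0.34 and no member with an unadjusted p under 0.05. The same libraries left out gave −0.56, −0.15 and −0.14. Uqcrc2, a core subunit of complex III, had a log2 fold change of −0.90 (95% interval −1.87 to 0.07), and Atp5a1, a subunit of ATP synthase, one of −0.78 (95% interval −1.65 to 0.08). Of the 13 mitochondrially encoded genes 12 had a positive fold change, and their median of 0.25 was −0.02 without HPi-Hp replicate 2, 0.06 without HPi-Hp replicate 3 and 0.52 without HPi-Hp replicate 4.

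Among 21 hypoxia targets DESeq2 called 2, both lower in the HPi-Hp mice, against 0.322% of all genes. The list had a median of −0.25, which was −0.40 without HPi-Hp replicate 3. Egln1, the prolyl hydroxylase that marks HIF for degradation, was at 103, 68.7, 103 and 77.8 CPM against 247, 167, 174 and 130.2 CPM (log2 fold change −1.03, 95% interval −1.53 to −0.53). Egln3, a related hydroxylase, was at 3.04 to 8.12 CPM against 12.3 to 17.5 CPM (log2 fold change −1.26). Neither overlapped between the diets, and DESeq2 called both in 4 of 8 fits with a library left out.

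Among the 34 interferon-stimulated genes tested, DESeq2 called 4 and edgeR none. All 4 were higher in the HPi-Hp mice, against 0.233% of all genes. Of the members, 32 had a positive fold change and the median was 0.49, with a range of 0.41 to 0.61 when single libraries were left out. The groups did not overlap for 11 members, all higher, and overlapped for the others. Over all genes, 2.36% did not overlap and were higher. With single libraries left out DESeq2 called 1 to 4 members.

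Irf7 (chr7:141262706-141266481), the transcription factor that amplifies the interferon response, was at 40.3, 39.7, 31.5 and 24.3 CPM in the HPi-Hp mice and at 16.4, 17.3, 12.3 and 17.0 CPM in the LPi-Lp mice. All 4 libraries of the first group lay above the second (log2 fold change 1.10, 95% interval 0.67 to 1.53, edgeR adjusted p = 0.397; DESeq2 adjusted p = 0.00102). Ifi27l2a, a small protein induced by interferon, had the largest fold change of the list. It was at 582, 198, 775 and 81.9 CPM against 41.7, 67.7, 29.1 and 28.4 CPM, and its HPi-Hp libraries spread widely without reaching the other group (log2 fold change 3.28, 95% interval 1.84 to 4.72). Isg15, the ubiquitin-like modifier whose promoter is shown above, was at 4.70 to 7.72 CPM against 2.89 to 3.48 CPM (log2 fold change 1.10). Ifit1, a sensor of foreign RNA whose promoter is also shown above, was at 7.55 to 14.6 CPM against 3.77 to 6.16 CPM (log2 fold change 1.06). DESeq2 called Ifi27l2a with each library left out, Irf7 in 7 of 8 such fits, Isg15 in 4 and Ifit1 in 2.

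In the other groups Irf7 averaged 37.9 ± 6.91 CPM (HPi-Lp, SD, n = 4) and 9.99 ± 0.525 CPM (Sham, n = 4). Isg15 averaged 6.53 ± 1.44 and 3.49 ± 0.445 CPM, and Ifit1 averaged 13.7 ± 2.25 and 3.77 ± 1.03 CPM. Ifi27l2a averaged 409 CPM in the HPi-Hp mice, 235 ± 154 in HPi-Lp mice and 26.5 ± 8.3 in Sham mice. For Irf7, Isg15 and Ifit1 the means of the HPi-Hp mice lay near those of the HPi-Lp mice, and the means of the LPi-Lp mice nearer to those of the Sham mice, while the mean of Ifi27l2a was highest in the HPi-Hp mice, without a test of these orders.

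Genes of antigen presentation and of macrophages had positive medians without a call. All 17 antigen presentation genes tested had a positive fold change, with a median of 0.67, and 3 of them were separated between the diets, though none was called. H2-Ab1, an MHC class II chain, was at 131, 83.0, 66.4 and 65.4 CPM against 45.0, 49.5, 52.4 and 35.4 CPM (log2 fold change 0.92, 95% interval 0.40 to 1.44). H2-Eb1, another class II chain, was at 64.1 to 137 CPM against 43.0 to 65.0 CPM and overlapped slightly (log2 fold change 0.87). Of 24 macrophage genes 22 had a positive fold change, with a median of 0.55 and 2 separated. Over all genes, 2.36% were separated and higher, as were the separated members of these lists. Fcgr3, an Fc receptor, was at 14.9 to 27.1 CPM against 8.19 to 13.1 CPM (log2 fold change 0.91, 95% interval 0.37 to 1.45). Csf1r, the receptor that keeps macrophages alive, was at 45.6 to 87.5 CPM against 31.3 to 49.9 CPM (log2 fold change 0.71).

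The summed macrophage level overlapped between the diets (1426 to 1913.5 against 1253 to 1845 CPM), and in the HPi-Lp mice it was 2017 to 6376 CPM. C4b, a complement component, was at 283, 190.3, 233 and 117 CPM against 86.0, 123, 84.7 and 90.6 CPM (log2 fold change 1.09, 95% interval 0.52 to 1.66; called in 2 of 8 fits with a library left out). It averaged 998 ± 245 CPM in the HPi-Lp mice, far above both diets compared here. The 18 acute phase and complement genes tested had a median log2 fold change of 0.43, which was 0.28 without HPi-Hp replicate 1, and 1 call. T cell genes had a median of −0.03, from −0.52 to 0.37 with single libraries left out, and 0 members separated. B and plasma cell genes had a median of 0.52 over 13 members, from 0.31 to 0.74 with single libraries left out. Their called member, Jchain, which joins secreted immunoglobulins, was at 5.90, 4.70, 38.7 and 2.59 CPM against 1.29 to 3.08 CPM, so the difference rested mainly on HPi-Hp replicate 3 (log2 fold change 2.59, and 1.05 and not called without that library).

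**Figure D3:**
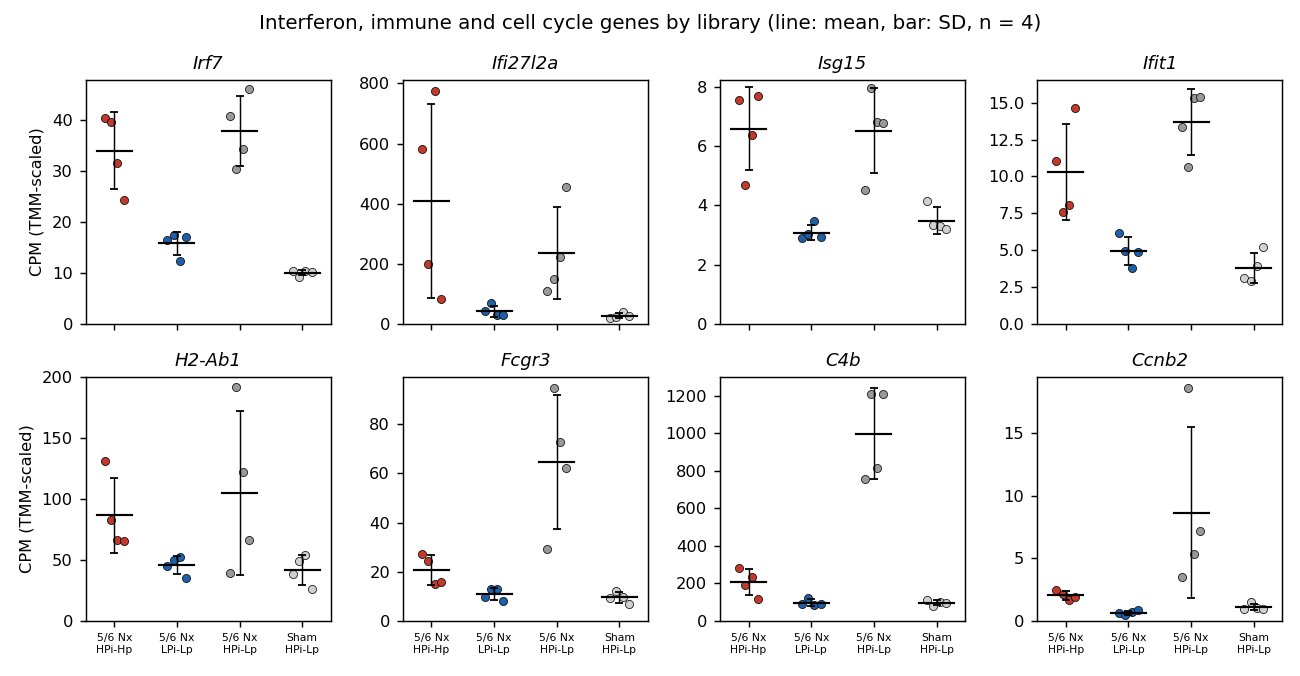
TMM-scaled CPM (y axis) of 8 interferon, immune and cell cycle genes in each library of the 4 groups (x axis), with the mean as a line and the SD as a bar (n = 4). Irf7, Ifi27l2a, Isg15, Ifit1, H2-Ab1, Fcgr3 and Ccnb2 do not overlap between the HPi-Hp and LPi-Lp mice, and C4b does.

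Cell cycle genes were low in both groups. Of 33 tested, 25 had a positive fold change, and the median was 0.35 (0.23 without HPi-Hp replicate 1). In the HPi-Hp mice 6 were separated and higher, against 2.36% of all genes. DESeq2 called 2, both higher, against 0.233% of all genes. Ccnb2, a mitotic cyclin, was at 2.49, 2.10, 1.64 and 1.92 CPM against 0.600, 0.452, 0.666 and 0.852 CPM (log2 fold change 1.64, 95% interval 0.80 to 2.49). E2f1, a transcription factor of the G1 to S transition, was at 3.52 to 7.89 CPM against 1.37 to 2.22 CPM (log2 fold change 1.39). DESeq2 called each of them in 2 of 8 fits with a library left out.

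Contractile smooth muscle genes did not separate the diets. The 31 members had a median log2 fold change of −0.04, with 0 called and 0 separated. That median was −0.51 without HPi-Hp replicate 4 and 0.18 without LPi-Lp replicate 4. Acta2, smooth muscle actin, was at 4360, 4339.7, 2278 and 11308 CPM against 3194, 4132, 5787 and 8539 CPM (log2 fold change 0.05, 95% interval −1.09 to 1.19). Myh11, smooth muscle myosin, was at 2209 to 6024 CPM against 2424 to 4967 CPM (log2 fold change 0.04, 95% interval −0.80 to 0.87), and Tagln, transgelin, had a log2 fold change of 0.06 (95% interval −0.70 to 0.81). The sign of these 3 values turned under the FPKM fits, the replicate block and when single libraries were left out. In the other groups Myh11 averaged 787 ± 336 CPM (HPi-Lp, SD, n = 4) and 6060.1 ± 329 CPM (Sham, n = 4), so the means of both diets, 3669 and 3589 CPM, lay between them. The endothelial list had a median of 0.03 and 1 of 26 members separated. The modulated smooth muscle list had a median of 0.21 (−0.01 without HPi-Hp replicate 4) and 1 of 21 separated. Over all genes, 2.36% were separated and higher, as were these members.

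Genes of phosphate handling and mineralization showed few differences. Of 11 phosphate transport and sensing genes tested, 0 were called or separated, and the median log2 fold change was −0.07. Slc20a1 and Slc20a2 encode the sodium-phosphate cotransporters PiT-1 and PiT-2 of smooth muscle. Slc20a1 was at 40.7 to 97.9 CPM against 32.5 to 52.4 CPM (log2 fold change 0.53, 95% interval −0.07 to 1.13). Slc20a2 was at 53.8 to 92.7 CPM against 68.2 to 93.7 CPM (log2 fold change −0.31, 95% interval −0.77 to 0.14).

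Among 16 mineralization inhibitors and genes of pyrophosphate metabolism the median was 0.04. In this list 1 member was separated and lower, against 2.88% of all genes. Ank, which exports pyrophosphate precursors from cells, was at 65.9, 45.5, 61.6 and 84.7 CPM in the HPi-Hp mice and at 146, 114, 124 and 107 CPM in the LPi-Lp mice. The log2 fold change was −0.93 (95% interval −1.38 to −0.47; DESeq2 adjusted p = 0.0123, under the fold limit and so not called). Mgp, matrix Gla protein, was at 1240.2 to 2192 CPM against 1365 to 2778 CPM (log2 fold change −0.31, 95% interval −0.96 to 0.35). Enpp1, which makes pyrophosphate from ATP, had a log2 fold change of 0.26 (95% interval −0.47 to 0.99), and Alpl, the phosphatase that degrades it, one of −0.32 (95% interval −0.83 to 0.19). Spp1, osteopontin, was at 0.937 to 4.53 CPM against 0.757 to 2.39 CPM (log2 fold change 1.05, 95% interval −0.22 to 2.31), and averaged 758 ± 461 CPM in the HPi-Lp mice.

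The 20 osteochondrogenic genes tested had a median of −0.04. Runx2, the osteoblast transcription factor, was at 1.33 to 2.35 CPM against 1.41 to 2.84 CPM (log2 fold change −0.04, 95% interval −0.84 to 0.76), and Bmp2, a bone growth factor, had a log2 fold change of −0.09 (95% interval −1.16 to 0.97). Comp, a cartilage matrix protein also made by vascular cells, was the called member. It was at 77.9, 77.8, 60.9 and 73.2 CPM against 35.2, 41.5, 26.8 and 33.3 CPM, and all HPi-Hp libraries lay above the other diet (log2 fold change 1.08, 95% interval 0.72 to 1.44, edgeR adjusted p = 0.247; DESeq2 adjusted p = 1.38e-05). Its mean was 122 ± 66.5 CPM in HPi-Lp mice and 45.4 ± 6.09 in Sham mice.

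Mapk14, the p38α kinase, was at 99.0 to 112 CPM against 78.0 to 116 CPM (log2 fold change 0.09, 95% interval −0.25 to 0.43). The 35 MAP kinases and phosphatases tested had a median of 0.00. The called member was Dusp4, a phosphatase of ERK and other MAP kinases, at 16.6, 4.45, 15.8 and 6.27 CPM against 78.5, 18.7, 50.9 and 20.3 CPM (log2 fold change −1.98, 95% interval −3.22 to −0.73; DESeq2 adjusted p = 0.034). The groups were narrowly separated, and the call was lost without HPi-Hp replicate 2, LPi-Lp replicate 1 or LPi-Lp replicate 3. Vcam1, an adhesion molecule of inflamed endothelium, had a log2 fold change of −0.24 (95% interval −0.85 to 0.37).

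**Figure D4:**
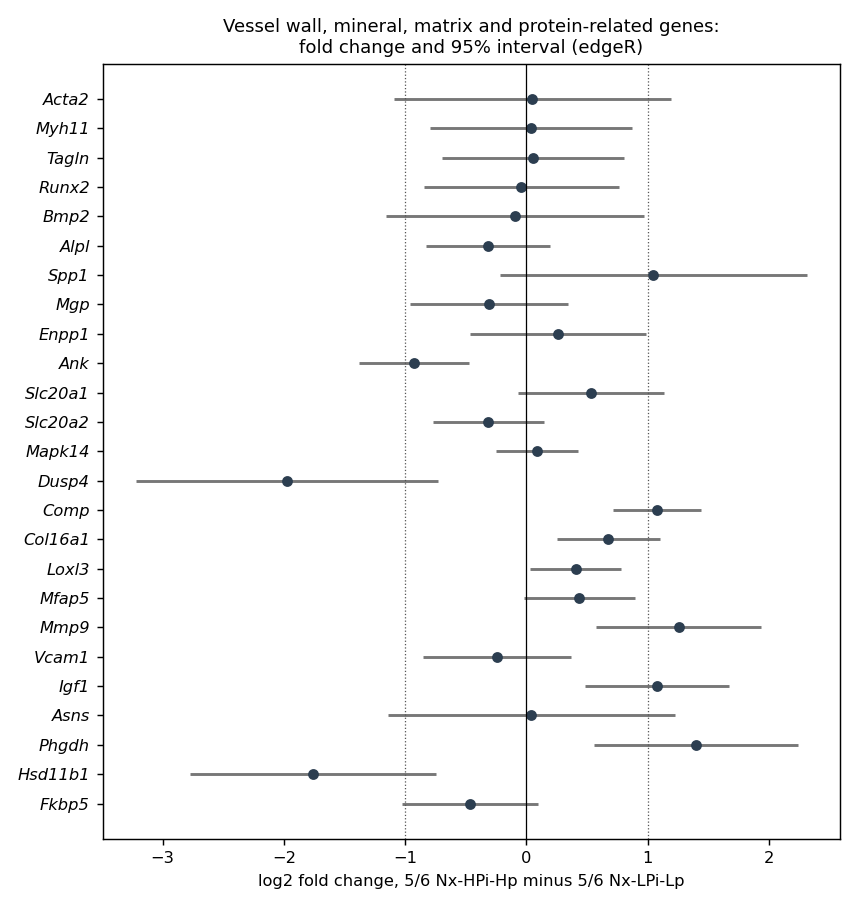
Log2 fold change (x axis, HPi-Hp minus LPi-Lp) with its 95% interval as a bar for 25 genes of the vessel wall, mineral handling, matrix, signaling and protein supply (y axis); dotted lines mark a 2-fold change. The intervals of Acta2, Myh11, Tagln, Runx2, Bmp2, Mgp and Mapk14 include 0, while those of Comp, Igf1, Ank and Dusp4 do not.

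Matrix genes had small positive fold changes. All 26 genes of elastic fibres and matrix cross-linking were positive, with a median log2 fold change of 0.28, 2 separated and 0 called. Over all genes, 2.36% were separated and higher. The median of the elastic fibre list was 0.10 without HPi-Hp replicate 4, 0.18 without LPi-Lp replicate 1 and 0.44 without HPi-Hp replicate 3. Loxl3, a lysyl oxidase homolog that cross-links collagen and elastin, was at 87.5 to 126 CPM against 63.2 to 87.1 CPM (log2 fold change 0.41, 95% interval 0.03 to 0.78). Mfap5, a microfibril protein, had a log2 fold change of 0.44 (95% interval −0.02 to 0.90). Of 36 collagen genes 30 were positive, with a median of 0.38, which was 0.19 without HPi-Hp replicate 4. Of them 3 were separated and higher, beside the same 2.36% of all genes. Col16a1, a fibril-associated collagen, was at 50.3 to 78.9 CPM against 31.6 to 46.9 CPM (log2 fold change 0.68, 95% interval 0.25 to 1.10).

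The 20 adventitial fibroblast genes had a median of 0.40, with 17 positive. Of them 6 were higher at an unadjusted edgeR p under 0.05, against 4.59% of all genes. In this list 2 were separated and higher, against 2.36% of all genes. Cygb, cytoglobin, was at 175 to 240.1 CPM against 120.1 to 159 CPM (log2 fold change 0.57), and Smoc2, a matricellular protein, was at 46.6 to 88.3 CPM against 29.7 to 43.5 CPM (log2 fold change 0.71). Among 24 matrix proteases and inhibitors the median was 0.22, or 0.05 without HPi-Hp replicate 4, and Mmp9, gelatinase B, was called. It was at 9.91, 10.2, 7.26 and 7.57 CPM against 4.14, 3.68, 1.85 and 4.73 CPM, without overlap (log2 fold change 1.26, 95% interval 0.58 to 1.94). DESeq2 called it in 3 of 8 fits with a library left out.

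Genes that respond to protein supply gave a mixed picture. Igf1, the growth factor, was at 66.9, 46.0, 81.6 and 45.2 CPM on the diet with 18% protein and at 29.7, 39.8, 26.2 and 17.8 CPM on the diet with 2.5% protein, without overlap (log2 fold change 1.07, 95% interval 0.48 to 1.67; DESeq2 adjusted p = 0.0386, called in 2 of 8 fits with a library left out). It averaged 155 ± 58.4 CPM in HPi-Lp mice and 21.3 ± 2.25 in Sham mice, which both received 2.5% protein. The 17 genes of the growth hormone and IGF axis had a median of 0.12, and 2 were separated, both higher, against 2.36% of all genes.

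The 38 genes of the amino acid deprivation response had a median of 0.06. Asns, asparagine synthetase, a standard ATF4 target, was at 7.15 to 36.4 CPM against 8.61 to 29.7 CPM (log2 fold change 0.04, 95% interval −1.14 to 1.22). Phgdh, the first enzyme of serine synthesis, was the called member, at 57.8, 27.2, 61.6 and 15.1 CPM against 13.3, 16.3, 15.8 and 15.4 CPM, with HPi-Hp replicate 4 inside the other group (log2 fold change 1.40, 95% interval 0.56 to 2.24; called in 1 of 8 fits with a library left out). The 31 genes of amino acid breakdown and the urea cycle had a median of −0.11 and the 80 cytosolic ribosomal protein genes one of −0.05, with 0 called in either list.

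Of 19 glucocorticoid response genes, with a median of −0.10, DESeq2 called Hsd11b1, the enzyme that regenerates active glucocorticoid and is abundant in fat. It was at 61.8, 28.9, 67.4 and 19.6 CPM against 259, 112, 143 and 81.5 CPM, without overlap (log2 fold change −1.76, 95% interval −2.77 to −0.75; called in 5 of 8 fits with a library left out). Fkbp5, a glucocorticoid receptor target, was at 23.8 to 41.9 CPM against 30.1 to 60.1 CPM (log2 fold change −0.47, 95% interval −1.02 to 0.09), and averaged 181 ± 33.4 CPM in the HPi-Lp mice.

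**Figure D5:**
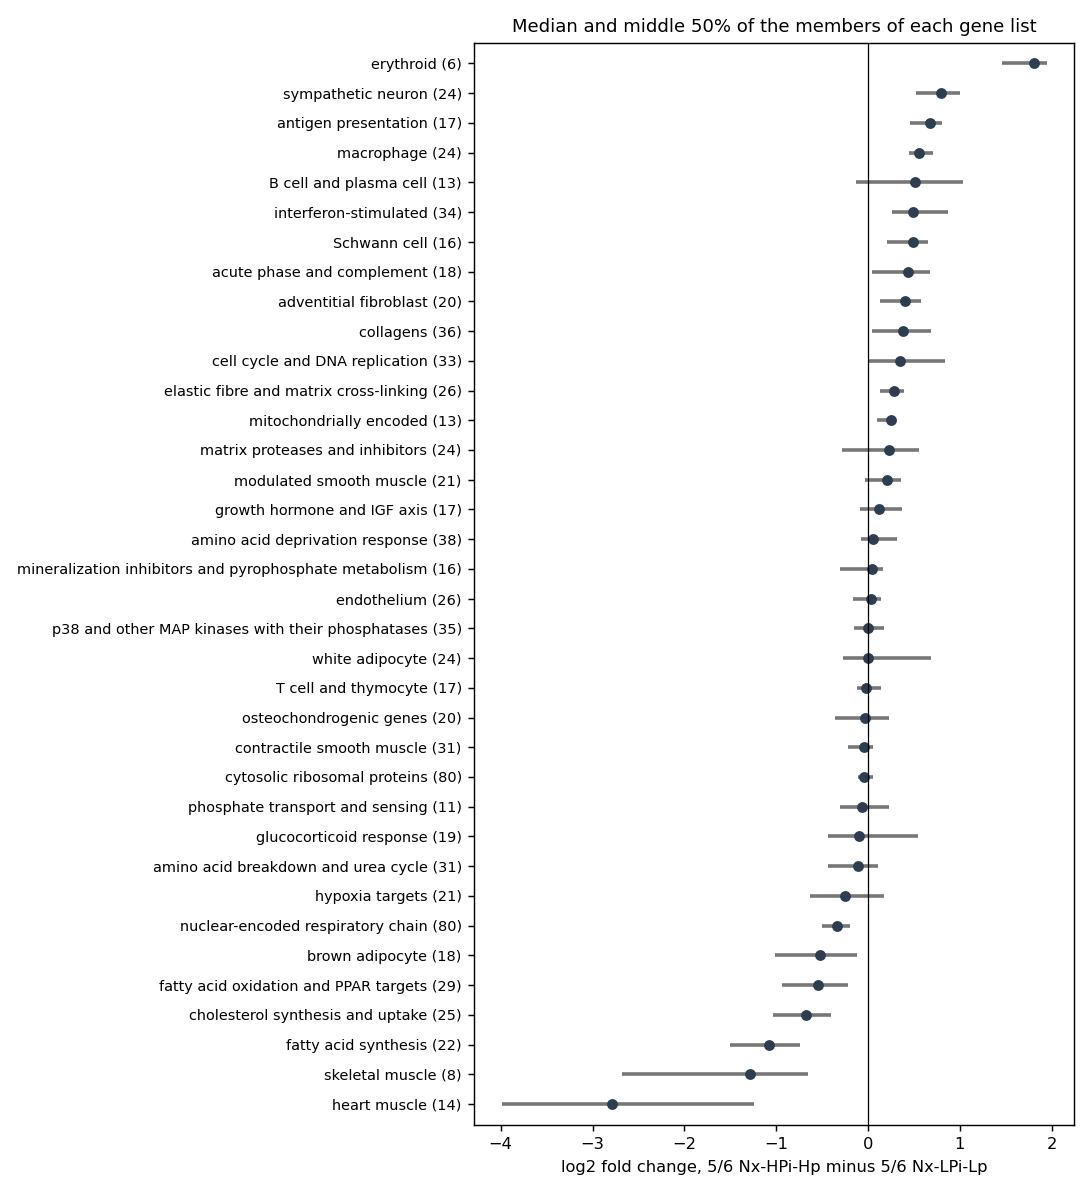
Median (point) and middle 50% (bar) of the log2 fold changes of the members tested in each gene list, with the number of members in parentheses; the x axis is the log2 fold change, HPi-Hp minus LPi-Lp. Fatty acid and cholesterol synthesis lie left of 0, interferon and antigen presentation lie right of 0, and contractile smooth muscle and phosphate transport lie near 0.

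DESeq2 called 12 genes with all 8 libraries and with each library left out in turn, which were chosen for the text after their values were seen. They were Wisp2, Plekha4, Nnmt, Chp2, Snhg11, Ifi27l2a and Gm21887, higher in the HPi-Hp mice, and Hephl1, Elovl3, Cxcl14, Ttc25 and Marc1, lower. None of the 12 overlapped between the groups.

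Wisp2, also named Ccn5, a matricellular protein that restrains smooth muscle growth, was at 219, 194, 205 and 246 CPM against 94.5, 97.9, 106 and 79.4 CPM (log2 fold change 1.19, 95% interval 0.84 to 1.54, edgeR adjusted p = 0.146). Both groups were tight, and the Sham mice averaged 106 ± 5.03 CPM. The HPi-Lp mice averaged 176.5 ± 119.9 CPM and ranged from 79.1 to 348 CPM. Plekha4, a phosphoinositide-binding adaptor, was at 40.2 to 65.2 CPM against 21.0 to 24.5 CPM (log2 fold change 1.17). Nnmt, which methylates nicotinamide, was at 27.3 to 47.9 CPM against 8.72 to 17.9 CPM (log2 fold change 1.37).

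Chp2, a regulator of sodium-proton exchangers, was at 6.01 to 11.5 CPM against 2.39 to 3.76 CPM (log2 fold change 1.37), and Snhg11, a small nucleolar RNA host gene, at 6.88 to 11.4 CPM against 0.775 to 3.92 CPM (log2 fold change 2.10). Gm21887, a predicted gene on the X chromosome, was at 123, 213, 92.4 and 51.9 CPM against 14, 19.8, 25.5 and 25.6 CPM. It has close copies, so its count is uncertain.

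Hephl1 (chr9:15051841-15112108), a copper-dependent ferroxidase, had the smallest p of all genes. It was at 0.271, 0, 0.312 and 0.259 CPM in the HPi-Hp mice and at 15.3, 2.84, 11.6 and 8.19 CPM in the LPi-Lp mice (log2 fold change −5.39, 95% interval −6.93 to −3.85, edgeR adjusted p = 0.146; DESeq2 adjusted p = 1.16e-12). It averaged 0.542 ± 0.647 CPM in HPi-Lp mice and 1.63 ± 0.46 in Sham mice, and no library of the other 3 groups reached the lowest LPi-Lp library. Cxcl14, a chemokine, was at 1.55 to 4.84 CPM against 6.52 to 34.4 CPM (log2 fold change −2.92), and averaged 72.8 ± 50.6 CPM in the HPi-Lp mice. Ttc25, a docking factor of ciliary dynein, was at 3.03 to 15.4 CPM against 20.1 to 98.0 CPM (log2 fold change −2.85). Marc1, an outer mitochondrial membrane reductase, was at 1.25 to 5.15 CPM against 7.49 to 43.8 CPM (log2 fold change −3.12).

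Markers of neighbouring tissues varied between libraries of the same diet. The 14 heart muscle genes tested had a median log2 fold change of −2.79, which was 1.82 without LPi-Lp replicate 2. Myl2, the ventricular myosin light chain, was at 1575 CPM in that library and at 0 to 6.01 CPM in the other 7, and Myl7, its atrial form, was highest in HPi-Hp replicate 1 at 99.0 CPM. Acta1, skeletal actin, called by DESeq2, was at 161 and 109 CPM in LPi-Lp replicates 2 and 4 and at 0.518 to 2.60 CPM elsewhere. Cela1, a pancreatic elastase also made by other cells, was at 1.73 to 6.58 CPM against 11.2 to 23.3 CPM (log2 fold change −1.92) while the other 11 genes of the acinar list failed the count filter.

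The 6 erythroid genes tested had a median of 1.81, which was 0.93 without HPi-Hp replicate 4, and 0 of them were separated. DESeq2 called the hemoglobin genes Hba-a1 and Hbb-bs. Hba-a1 was at 93.9, 396, 180.5 and 713 CPM against 43.5 to 105 CPM and Hbb-bs at 64.4, 234, 119 and 401 CPM against 28.8 to 72.2 CPM, so both overlapped. Each has a near-identical copy, and the split of reads between copies is uncertain. Their mean level in the Sham mice was higher still, 692 ± 818 CPM for Hba-a1, but this rested mainly on Sham replicate 1 at 1899.5 CPM. The other Sham libraries had 168.8 to 490.7 CPM of Hba-a1, and the HPi-Hp mice averaged 345.9 CPM.

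The 3 liver genes that passed the count filter had a median of 2.69, from 2.02 to 3.24 with single libraries left out, and none was called or separated. The 11 liver genes in the table summed to 531, 258, 1013 and 33.6 CPM in the HPi-Hp mice and to 79.7, 145, 53.7 and 21.0 CPM in the LPi-Lp mice. Cyp2e1, a cytochrome of liver and fat, was at 23.6 to 876 CPM against 14 to 124 CPM, and Alb, serum albumin, at 0.162 to 87.5 CPM against 0 to 5.12 CPM.

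The 24 sympathetic neuron genes had a median of 0.79, which was 0.06 without HPi-Hp replicate 4 and 2.06 without LPi-Lp replicate 4, and 0 members were separated. Their summed level was 138 to 523 CPM against 87.3 to 390.5 CPM. Chga, a granule protein of chromaffin cells and neurons, was at 1.56 to 7.83 CPM against 0 to 2.84 CPM, and Npy, neuropeptide Y, at 0.312 to 32.6 CPM against 0.164 to 11.2 CPM. The 16 Schwann cell genes had a median of 0.49. Nnat, an imprinted gene expressed in neurons and adipocytes, was called, at 46.4, 9.14, 19.4 and 6.17 CPM against 2.83, 7.69, 1.77 and 1.51 CPM (log2 fold change 2.55, and 1.74 without HPi-Hp replicate 1). The part of these tissues in the diet differences was not tested. The other 11 gene lists had medians from −0.21 to 0.67, with 1 member called higher and 1 lower and 0 to 2 members separated in each.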

How the data were processed

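Poly-A mRNA from the aortas of 16 mice, 1 library each, was sequenced. After read cleaning and HISAT2 alignment to mm10, the authors counted reads per gene with featureCounts 1.5.0-p3 and deposited whole-number counts of 54532 genes. The authors also deposited FPKM, which were already scaled between libraries. Whether strand or multiply mapped reads were considered is not given in the sources used here, which limits genes with close copies.

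The main test was that of edgeR 4.0.16 under R 4.3.3 (filterByExpr, TMM, quasi-likelihood, Benjamini-Hochberg adjustment) on the 8 libraries. Levels are CPM after TMM scaling of all 16 libraries, which removes depth (13659525 to 21547424 counts here) but not tissue content. The FPKM entered only limma 3.58.1, as log2(FPKM + 1) and log2(FPKM + 0.1) at a mean FPKM of at least 0.5. The alternatives were DESeq2 1.42.0, RLE and total-count scaling, no filter on counts, a minimum of 10 counts per library, fits of 16 or 12 libraries, a replicate block, no fold limit, only protein-coding genes, no mitochondrially encoded genes, and each library left out. The tests were tested on simulated data. Figures were drawn with matplotlib 3.10.9 in Python 3.11.15.

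The rule named, per list, up to 4 called members, or up to 2 with the smallest p where none was called, plus 18 set genes. As edgeR called none, DESeq2 calls took that place, a choice made after the values were seen, and Ucp1, Adipoq, Npy, Myl7, Pon1 and the genes called with every library left out were added then. The comparison, the 49 lists and the genes were chosen with earlier results of these data known. Same-numbered mice correlated at 0.20, 0.17, −0.07 and 0.56 in their deviations, and differently numbered mice at −0.49 to 0.54. The numbers were therefore not taken to pair mice.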

Additional observations from a re-analysis of the deposited data

Results flagged for a closer look

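Within a group of 4 libraries, a value was singled out where its gap to the nearest library took a larger share of the range than Dixon's critical value for 4 values allows. Of 244 groups examined, 8 were singled out (3.28%), and chance alone gives about 1 in 20.

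Heart muscle genes summed to 14200.3 CPM in LPi-Lp replicate 2, where the next highest library of the group had 927.3 CPM. Myl2 was at 1575 CPM in the same library, against 3.12 CPM in the next. In the HPi-Hp mice, Jchain was at 38.7 CPM in replicate 3 against 5.90 CPM in the next library, the macrophage list summed to 1913.5 CPM in replicate 1 against 1478.8 CPM, and Hephl1 was at 0 CPM in replicate 2 while the others had at least 0.259 CPM. In the LPi-Lp mice, Cela1 was at 23.3 CPM in replicate 1 and at most 13.2 CPM elsewhere, C4b was at 123 CPM in replicate 2 and at most 90.6 CPM elsewhere, and Smoc2 was at 29.7 CPM in replicate 4 and at least 41.4 CPM elsewhere.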

How the results depend on the processing

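The edgeR count of 0 was also 0 under RLE and total-count scaling, the strict count filter, both limma fits, the fits of 16 and 12 libraries, no mitochondrially encoded genes, only protein-coding genes, and no fold limit. It was 12 with no count filter and 88 with DESeq2, and 0 to 1 with single libraries left out (Hephl1 without LPi-Lp replicate 2). With a replicate block it was 10, although the numbers were not taken to pair the mice. All 12 and 9 of the 10 were among the 88 genes called by DESeq2. The DESeq2 count was 21 to 120 with single libraries left out. The count of separated genes was 831, and 834 and 782 under total-count and RLE scaling. Of 1653 values of named genes under the alternatives, 1553 kept their sign and side of the threshold, 68 passed the threshold and 32 changed sign. Under limma with log2(FPKM + 1), limma with log2(FPKM + 0.1) and the replicate block, the log2 fold change was −0.028, −0.032 and −0.035 for Tagln, −0.096, −0.096 and −0.093 for Acta2, −0.0071, −0.0072 and −0.015 for Myh11, and −0.068, −0.098 and −0.11 for Asns. With single libraries left out it was −0.38 to 0.26 for Tagln, −0.58 to 0.37 for Acta2, −0.33 to 0.24 for Myh11, −0.43 to 0.35 for Asns, −0.31 to 0.31 for Bmp2, −0.17 to 0.18 for Runx2, −0.38 to 0.061 for Vcam1, −0.021 to 0.17 for Mapk14 and −8.13 to 0.44 for Myl2. The difference in mitochondrial share was −0.50 to 6.01 percentage points. Of 959 list medians, 17 moved by more than the spread between replicates. The cause of these shifts was not tested. Depth limits genes near 1 CPM, where counting error is large.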

Other observations

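Some genes that DESeq2 called belonged to no list and were picked here after their values were seen. Hk2, hexokinase 2, was at 80.5, 55.1, 108 and 78.4 CPM in the HPi-Hp mice and at 343, 125, 283 and 169 CPM in the LPi-Lp mice (edgeR log2 fold change −1.52, 95% interval −2.26 to −0.78; DESeq2 adjusted p = 0.00509). Pfkl, a phosphofructokinase, was at 109 to 227 CPM against 221 to 746 CPM (log2 fold change −1.49) and overlapped narrowly. Ugp2, which makes UDP-glucose for glycogen, was at 38.2 to 72.0 CPM against 75.9 to 146 CPM (log2 fold change −1.01), and Ppp1r3c, which targets a phosphatase to glycogen, was at 8.47 to 26.2 CPM against 30.0 to 58.4 CPM (log2 fold change −1.32). Hk2, Ugp2 and Ppp1r3c did not overlap between the diets. Without LPi-Lp replicate 1 or LPi-Lp replicate 3 DESeq2 called none of these 4 genes.

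Plin2, a coat protein of lipid droplets, was at 87.4 to 240.6 CPM against 219.8 to 866 CPM (log2 fold change −1.74), and Acsl5, which activates fatty acids, was at 54.4 to 138 CPM against 110.2 to 478 CPM (log2 fold change −1.83). For all 6 genes replicate 1 or replicate 3 of the LPi-Lp mice was the highest library. Plin2 and Acsl5 were likewise not called without either of these libraries. Pon1, an esterase carried on high-density lipoprotein, went the other way, at 41.6, 18.2, 41.0 and 3.32 CPM against 4.14, 2.07, 2.96 and 0.615 CPM (log2 fold change 3.40, 95% interval 1.70 to 5.10), with HPi-Hp replicate 4 inside the range of the other group. The summed liver level was highest in the same 3 HPi-Hp libraries as Pon1, at 531, 258, 1013 and 33.6 CPM. Most of it was Cyp2e1, a gene of liver and fat, at 524, 216, 876 and 23.6 CPM. Alb was at 0.162, 23.5, 87.5 and 2.49 CPM, lowest in replicate 1, where Pon1 was highest. Adipoq was at 565, 214, 533 and 56.6 CPM. The part of liver or fat tissue in the difference of Pon1 was not tested.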
